A study of Mus musculus with 6 samples.

Results

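Blm and the RecQ helicase pathway comprise 9 of the 19938 genes measured on these arrays. They are the 5 RecQ helicase genes Blm, Wrn, Recql, Recql4 and Recql5, the Blm partner genes Rmi1 and Top3a, and the nuclease genes Exo1 and Dna2. They were chosen by name, with earlier results of these data known. Each was read from a probe set that the platform annotation pairs with exactly 1 gene symbol, and where a gene had several such probe sets the brightest over the 6 arrays was used. All 9 were measured, and none was lost to a filter on dim signal because none was applied. Over the 6 arrays their signals lay between the 50.2 and 93.9 percentile of all genes.

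The arrays hold RNA from KSL cells, the cKit+ Sca1+ lineage-negative fraction of mouse marrow that contains the stem cells and earliest progenitors of blood. The DKO group (3 arrays) has the genotype Runx1fl/fl;Runx3fl/fl;Mx1-Cre+, in which the genes of 2 RUNX transcription factors can be deleted. The WT group (3 arrays) consists of littermates of genotype Runx1fl/fl;Runx3fl/fl;Mx1-Cre-, so both groups carry the floxed alleles and differ in the transgene. Mx1-Cre is driven by an interferon-responsive promoter and is induced with pIpC, a double-stranded RNA analogue. Per the labels' protocols, mice aged 4 weeks received 600 µg of it by injection on 7 alternate days, on a C57BL/6 background after at least 3 generations of backcrossing, while the sample descriptions call the cells untreated. That protocol text is attached to both groups, and an effect of Cre and one of the deletion cannot be told apart. Each WT sample was a pool of 3 mice, the labels give no pooling for the DKO samples and the design text counts 6 mice in all, so n = 3 below counts arrays.

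As a check of the labels, Runx1 had log2 signals of 9.22, 9.37 and 9.28 in the arrays labelled DKO and of 8.49, 8.53 and 8.38 in WT, a difference of 0.82 in the direction opposite to a loss (limma adjusted p = 0.000427). Runx3 had 7.40, 7.40 and 7.34 against 7.53, 7.59 and 7.47 (-0.15, adjusted p = 0.253). Which probes lie in the deleted exons was not examined, so these signals do not check the deletion, and DKO below means arrays labelled DKO, with every direction taken from the labels. The 11 measured KSL marker genes ranged from the 28.4 percentile of the genes in an array (Slamf1, in WT) to the 99.1 (Cd48, in DKO), with Kit, which the sort selects for, between the 96.8 and 99 percentile (Ly6a, the gene of Sca1, is not analysed here). Of these 11, 5 rose and 2 fell (45.5% and 18.2%, beside 9.71% and 7.69% of all genes), among them Slamf1 (1.95), Cd48 (1.46), Ptprc (0.76) and Flt3 (-1.32). Of 11 markers of mature lineages 0 rose and 0 fell by limma, and 1 had an unadjusted p under 0.05. Most were dim, since 6 of these 11 remained with the dimmest 25% of genes left out and 2 with the dimmest 50%. For the dim ones the lack of a call says little. Of 7 mast cell and basophil markers 3 rose, Cpa3 (3.43), Ms4a2 (2.24) and Hdc (1.27), and 2 fell, Mcpt8 (-1.32) and Fcer1a (-0.68), shares of 42.9% and 28.6%. The call of Fcer1a was lost without DKO replicates 1, 2 or 3 (limma adjusted p = 0.124, 0.0786 and 0.126) and with quantile normalisation, median centring, cyclic loess or the trend over gene span and signal removed, which leaves 1 fall. Fcer1a was also dim, between the 8.49 and 28.3 percentile of the genes in an array. The part of all these markers in the results below was not tested. In bulk RNA, fewer cells of a type and less RNA per cell cannot be told apart.

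RecQ helicases are ATP-driven enzymes that unwind DNA in the 3′ to 5′ direction, and they act on forks, D-loops and other structures that arise during replication and homologous recombination. BLM works with topoisomerase III alpha (Top3a) and RMI1 to dissolve double Holliday junctions without crossing over, and it also assists the nucleases EXO1 and DNA2, which cut back one strand at a DNA break. Loss of BLM causes Bloom syndrome, loss of WRN causes Werner syndrome, and mutations of RECQL4 cause Rothmund-Thomson syndrome.

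Of the 9 genes, 5 had an entry in the RefSeq promoter table (build GRCm38.p6): Blm, Recql, Recql5, Rmi1 and Dna2, while Wrn, Recql4, Top3a and Exo1 had none. Windows of 250 bases before an annotated start are shown, since Blm and Recql are the members that rose and have an entry, and Dna2 had one of the lowest differences. Capitals mark matches to the RUNX motifs TGTGGT and TGCGGT and to the E2F core GCGGGAA, on either strand.
Blm, chr7:80534999-80535248, minus strand: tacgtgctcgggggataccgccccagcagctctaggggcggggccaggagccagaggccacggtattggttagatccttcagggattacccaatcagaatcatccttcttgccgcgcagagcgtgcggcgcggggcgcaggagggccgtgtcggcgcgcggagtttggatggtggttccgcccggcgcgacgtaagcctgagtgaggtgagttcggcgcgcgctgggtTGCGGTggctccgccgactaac
Recql, chr6:142386943-142387192, minus strand: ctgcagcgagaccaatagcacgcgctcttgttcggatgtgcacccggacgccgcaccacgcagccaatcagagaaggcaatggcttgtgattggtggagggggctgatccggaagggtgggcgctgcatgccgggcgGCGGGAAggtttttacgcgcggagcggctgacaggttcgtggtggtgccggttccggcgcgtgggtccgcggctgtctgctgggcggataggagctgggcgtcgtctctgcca
Dna2, chr10:62946779-62947028, plus strand: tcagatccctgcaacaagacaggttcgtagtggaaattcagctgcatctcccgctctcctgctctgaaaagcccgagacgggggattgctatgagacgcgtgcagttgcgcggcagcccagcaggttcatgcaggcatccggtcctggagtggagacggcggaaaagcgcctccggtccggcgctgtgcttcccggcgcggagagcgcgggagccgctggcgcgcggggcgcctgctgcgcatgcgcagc

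The Blm window holds 1 match to TGCGGT, whose first base lies 22 bases before the start. TGCGGT is present in 5.1% and TGTGGT in 14% of 32851 windows of the same length, and either motif in 18.6%; the searched motifs do not contain one another. Recql has 2 annotated starts in the table. The window of the second, shown above, holds 1 match to GCGGGAA, 113 bases before the start, against 3.82% of all windows, and the window of the first, which overlaps it, holds 0. The Dna2 window holds none of these 3 motifs. Among the windows not shown, those of Recql5 and of the first Rmi1 start hold no match to these 3 motifs, and that of the second Rmi1 start holds 1 match to TGTGGT, 83 bases before it. CCAAT, present in 33.8% of all windows, is at 2 places in the windows of Blm, Recql5 and the first Rmi1 start, at 4 and 3 in those of Recql, and at 0 in those of Dna2 and the second Rmi1 start. The Blm window is 66.8% G or C and contains 29 CG pairs, and the Dna2 window is 66.4% G or C with 27. A match is a description of these letters and no evidence of binding.

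In the DKO arrays, Blm, Wrn and Recql were higher and none of the 9 genes was called lower. Blm rose 1.63-fold, Wrn 1.48-fold and Recql 1.29-fold, whereas Recql4 and Recql5 stood at 0.912 and 0.891 of WT without passing the test. Exo1 and Dna2, the resection nucleases, stood at 0.715 and 0.718 of WT, also without passing. Thus 3 of 9 were called higher (33.3% against a background of 9.71% of all genes) and 0 of 9 lower by limma (background 7.69%). At an unadjusted p under 0.05, 2 of the 9 were lower, Exo1 and Dna2, beside 3181 of all 19938 genes. The background shares of all genes in this text count dim genes, whereas all 9 genes lie above the dimmest 50%. With the dimmest 50% of the 19938 genes left out, the remaining 50% gave 1995 rises and 1269 falls, and the 9 gave 3 and 1. These brighter genes alone thus gave more rises than the 1936 called among all genes. Their shares called were well above 9.71% and 7.69%, so 33.3% exceeds their share by much less. The share of 1 fall in 9 was close to theirs. Whether the 9 differ from these brighter genes was not tested. The median difference of the 9 genes was -0.07 on the log2 scale, beside -0.04 over all genes. The background split of 1936 rises and 1533 falls became 2254 and 1121 with each array centred on its median.

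**Figure D1:**
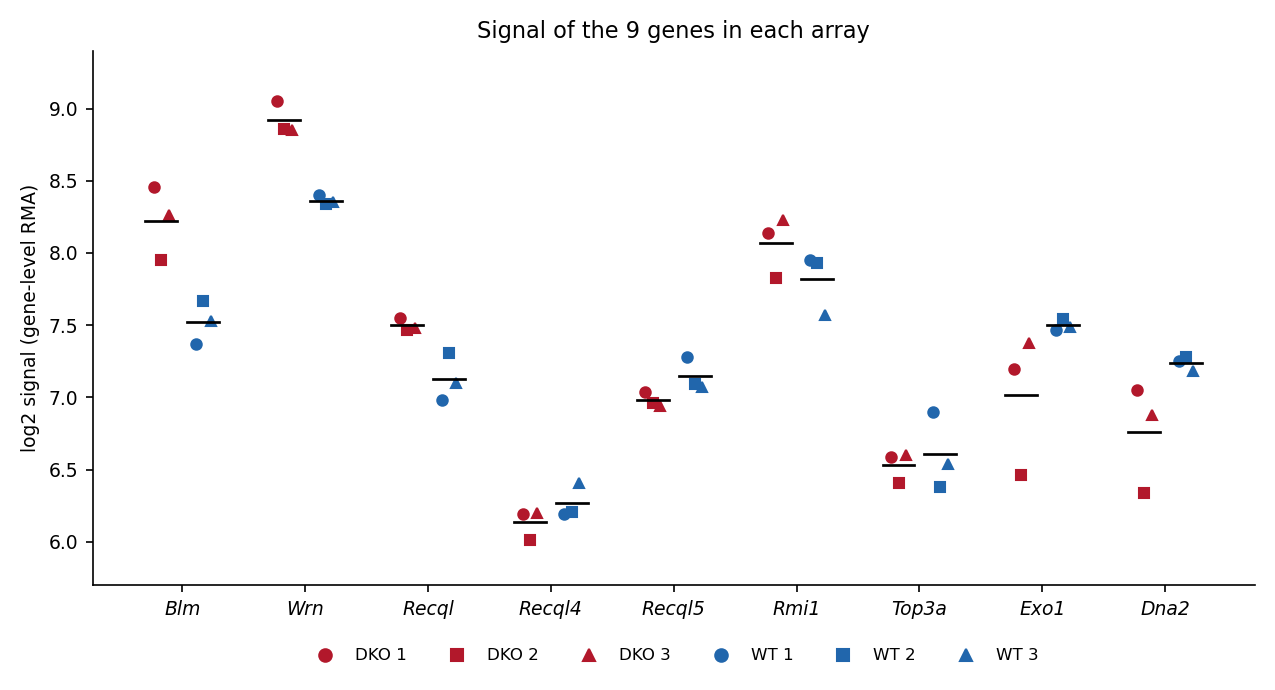
Log2 signal (vertical axis) of the 9 genes in the 3 DKO arrays (red) and 3 WT arrays (blue), with symbols for the replicate number and bars for group means. Blm, Wrn and Recql are higher in every DKO array than in any WT array, and DKO replicate 2 (red square) lies far below the other arrays for Exo1 and Dna2.

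Blm, the helicase at the centre of the pathway, had log2 signals of 8.46, 7.95 and 8.26 in DKO replicates 1 to 3 and of 7.37, 7.67 and 7.53 in WT. The groups did not overlap, with 0.28 between the lowest DKO and the highest WT array, and DKO replicate 2 was the nearest to WT. The means were 8.22 ± 0.26 and 7.52 ± 0.15 (SD, n = 3), a difference of 0.70 (SE 0.136, 95% interval 0.40 to 1.01, limma adjusted p = 0.00725). This call held in 19 of 19 alternative settings, with differences of 0.49 to 0.84 and adjusted p of 0.00495 to 0.0386.

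Wrn, which unlike the other RecQ proteins also has an exonuclease domain, had signals of 9.05, 8.86 and 8.85 in DKO and of 8.40, 8.34 and 8.35 in WT. It had the widest gap between the groups of the 9 genes, 0.45, and WT arrays that spanned only 0.06. The means were 8.92 ± 0.11 and 8.36 ± 0.03 (SD, n = 3), a difference of 0.56 (SE 0.0901, 95% interval 0.36 to 0.76, limma adjusted p = 0.00295). The call was lost in 1 of 19 alternatives, where the trend of differences over gene span and signal was removed and Wrn stood at 0.26 (adjusted p = 0.0863). Wrn spans 151 kb, and that trend put the difference of a gene of its span and signal at 0.30; it was 0.21 for Blm, which spans 80.2 kb and stayed past the threshold at 0.49 (adjusted p = 0.0386).

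Recql, a helicase that helps restart reversed replication forks, had signals of 7.55, 7.47 and 7.48 in DKO and of 6.98, 7.31 and 7.10 in WT. The 3 DKO arrays lay within 0.08 of each other, and WT replicate 2 came within 0.16 of them. The means were 7.50 ± 0.05 and 7.13 ± 0.17 (SD, n = 3), a difference of 0.37 (SE 0.102, 95% interval 0.14 to 0.60, limma adjusted p = 0.0337). Its call was the least stable of the 3 rises, lost in 9 of 19 alternatives, among them leaving out any 1 array other than WT replicate 2 (adjusted p of 0.0797 to 0.113), where without WT replicate 2 it stood at 0.46 (adjusted p = 0.0134). It was also lost with the replicate number as a block (adjusted p = 0.0568).

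Recql4, which also acts at the initiation of replication, had signals of 6.19, 6.01 and 6.20 in DKO and of 6.19, 6.21 and 6.41 in WT. The groups overlapped, and the difference was -0.13 (95% interval -0.36 to 0.09, limma adjusted p = 0.409). Recql5, a helicase that binds RNA polymerase II, had signals of 7.04, 6.96 and 6.94 in DKO and of 7.28, 7.09 and 7.07 in WT. All 3 DKO values lay below the WT values by a gap of 0.03, and the difference was -0.17 (95% interval -0.37 to 0.04, limma adjusted p = 0.26). Both intervals leave out a rise of the size seen for Recql, 0.37.

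The difference among the helicases was examined as the ratio of 2 genes within an array, which cancels any scale factor of the array. Blm over Recql4 was higher in DKO by 0.84, Blm over Recql5 by 0.87 and Wrn over Recql5 by 0.73 on the log2 scale. The ratios of Blm, Wrn or Recql to Recql4 or Recql5, a grouping made after the values were seen, did not overlap between the groups in 6 of 6 pairs. For the pairs with Recql5 no other outcome was possible, because its DKO values lay below WT and those of Blm, Wrn and Recql above. Among Blm, Wrn and Recql themselves 1 of 3 pairs did not overlap, Blm over Recql, which was higher in DKO by 0.33. For Recql4 over Recql5 the ratio differed by 0.03 and overlapped. Of all 36 pairs of the 9 genes 20 did not overlap, beside 38.1% of all pairs of genes on the arrays. Among them, the pairs of Blm, Wrn or Recql with Recql5, Exo1 or Dna2 could likewise not overlap. With 3 arrays against 3 the exact two-sided permutation test cannot go below p = 0.1, the value of each of these 20 pairs (adjusted p = 0.18 over the 36 pairs), so no ratio passed a threshold.

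**Figure D2:**
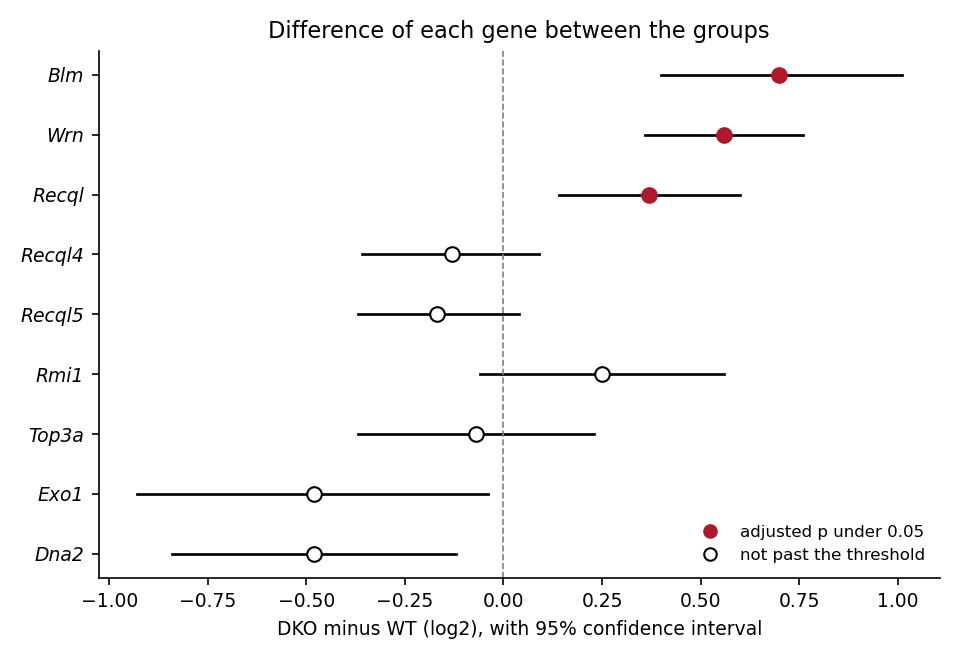
DKO minus WT on the log2 scale (horizontal axis) for each of the 9 genes, with the 95% confidence interval of the limma fit; filled points passed an adjusted p of 0.05. The intervals of Blm, Wrn and Recql lie above 0, those of Exo1 and Dna2 lie below 0 although their adjusted p did not pass, and the other 4 include 0.

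The partners that form the dissolution complex with BLM did not pass the test. Rmi1, the OB-fold protein that stabilises the complex, had signals of 8.14, 7.83 and 8.23 in DKO and of 7.95, 7.93 and 7.57 in WT, a difference of 0.25 (95% interval -0.06 to 0.56, limma adjusted p = 0.254). A second Rmi1 probe set differed by -0.14 (7.66, 7.78 and 7.77 in DKO, 7.75, 7.93 and 7.96 in WT), so the direction of Rmi1 depends on the probe set, and the mean of both differed by 0.05. Top3a, the type IA topoisomerase that passes the strands, had signals of 6.59, 6.41 and 6.60 in DKO and of 6.90, 6.38 and 6.54 in WT. The groups overlapped and the difference was -0.07 (95% interval -0.37 to 0.23, limma adjusted p = 0.759), with a turn to 0.07 without WT replicate 1. The ratio of Blm to Top3a was higher in DKO by 0.78 and that of Blm to Rmi1 by 0.45, both without overlap between the groups (exact permutation p = 0.1 each, the smallest possible). The ratio to Rmi1 was taken from its brighter probe set alone, so its size depends on that choice.

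Exo1, a nuclease that degrades the 5′ strand at breaks and in mismatch repair, had signals of 7.20, 6.46 and 7.38 in DKO and of 7.47, 7.54 and 7.49 in WT. The DKO arrays spread over 0.92 and the WT arrays over 0.07, and the 3 DKO values were the lowest. The means were 7.02 ± 0.49 and 7.50 ± 0.04 (SD, n = 3), a difference of -0.48 (SE 0.2, 95% interval -0.93 to -0.04, limma adjusted p = 0.132). Dna2, a nuclease and helicase that resects breaks and processes Okazaki fragments, had signals of 7.05, 6.34 and 6.88 in DKO and of 7.25, 7.28 and 7.18 in WT. Its 3 DKO values too lay below every WT value, at 6.76 ± 0.37 against 7.24 ± 0.05 (SD, n = 3), a difference of -0.48 (SE 0.16, 95% interval -0.84 to -0.12, limma adjusted p = 0.0703). Without DKO replicate 2 the differences were -0.21 for Exo1 and -0.27 for Dna2 (adjusted p = 0.254 and 0.141). Dna2 passed the threshold without DKO replicate 1 (-0.62, adjusted p = 0.0378), and it passed with the dimmest 50% of genes left out (adjusted p = 0.0497). In all, the 3 DKO values lay above the WT values in 3 of the 9 genes (Blm, Wrn, Recql) and below them in 3 (Recql5, Exo1, Dna2), 33.3% each, beside 16.2% and 19.6% of all genes and 35.8% in either direction.

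DKO replicate 2 stood apart in these genes. It was the lowest of the 3 DKO arrays for 7 of the 9 genes and the highest for 0, where over all genes it was the lowest for 32.8%. The same array was the lowest DKO array for 23 of 23 measured S phase genes and 17 of 17 mitosis genes, with medians of -0.28 and -0.27 from the DKO mean. Among WT arrays, replicate 2 was the highest for 17 of 17 mitosis genes and 15 of 23 S phase genes. Cell cycle genes thus varied between arrays of one group, and their part in the values of the 9 genes was not tested. Of 23 S phase genes 0 rose between the groups, also at an unadjusted p under 0.05, and 2 fell (8.7% beside 7.69% of all genes), Mcm5, a subunit of the replicative helicase (-0.66, limma adjusted p = 0.0193), and Cdc45 (-0.50, adjusted p = 0.0446), with a median of -0.07. In all 5 were lower at an unadjusted p under 0.05, beside 3181 of all 19938 genes. In 6 S phase genes (26.1%) the 3 DKO values lay below every WT value, beside 19.6% of all genes. The count of falls was 3 with quantile normalisation, cyclic loess or the trend removed, 4 without the dimmest 50% of genes, and 1 with median centring or the replicate block. Of 17 mitosis genes 1 rose (5.88% beside 9.71% of all genes), the kinase gene Cdk1 (0.49, adjusted p = 0.0445), and 0 fell, with 1 lower at an unadjusted p under 0.05 and a median of 0.06. The call of Cdc45 was also lost without DKO replicate 1 or WT replicates 2 or 3 (adjusted p = 0.0812, 0.115 and 0.103), and that of Cdk1 without DKO replicates 1 or 3 or WT replicates 1 or 3 (adjusted p = 0.149, 0.162, 0.102 and 0.12). Pcna, the sliding clamp of replication, and Mki67, a marker of cycling cells, differed by 0.10 and 0.16 (adjusted p = 0.583 and 0.382). Without DKO replicate 2 the count of S phase genes called lower was 0, with Mcm5 at -0.52 (adjusted p = 0.0673) and Cdc45 at -0.34 (adjusted p = 0.124). Over all genes that setting took the falls from 1533 to 876 and the rises from 1936 to 1354. Blm stood at 0.84 and Wrn at 0.59 there, both past the threshold.

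**Figure D3:**
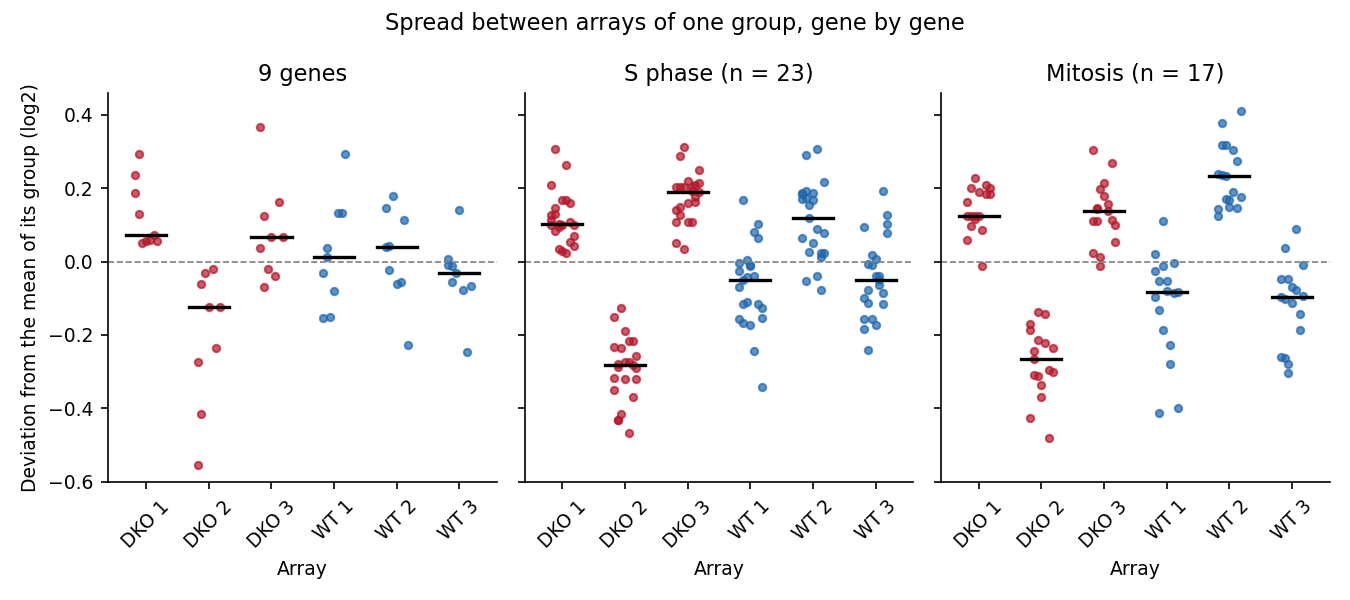
Deviation of each gene from the mean of its group (vertical axis, log2) in each array for the 9 genes, 23 S phase genes and 17 mitosis genes, with bars at the medians. DKO replicate 2 lies below 0 in every S phase and mitosis gene and in most of the 9 genes.

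The other genes of homologous recombination were called at shares near those of all genes only where dim genes were counted. Beside the brighter genes their share of rises was lower. Of 42 measured genes in 6 lists of recombination and topoisomerase genes, 4 rose, 4 fell and 34 did not pass, shares of 9.52% each beside the background of 9.71% and 7.69%. With the dimmest 50% of the 19938 genes left out, those of the 42 that remained gave 4 rises and 5 falls. All the remaining genes gave 1995 and 1269. There the share of rises in these lists was below that of all remaining genes, and the share of falls was near it. Neither difference in shares was tested. The median difference of the 42 genes was -0.04, as over all genes. The counts of rises and falls were 1 and 1, 3 and 0, and 1 and 0 without DKO replicates 1, 2 and 3, and 3 and 1, 4 and 1, and 2 and 3 without WT replicates 1, 2 and 3. Of 7 resection genes, Rad50, an ATPase of the complex that senses DNA ends, rose by 0.40 (10.19, 10.01 and 10.20 in DKO, 9.67, 9.74 and 9.78 in WT, limma adjusted p = 0.0151), and Rif1, which restrains resection, rose by 0.62 (adjusted p = 0.0347). Bard1, the partner of BRCA1, fell by 0.61 (7.40, 6.79 and 7.37 in DKO, 7.96, 7.89 and 7.53 in WT, adjusted p = 0.0386), and Brca1 itself differed by -0.37 (adjusted p = 0.134). The genes of the other subunits of the Rad50 complex, Mre11a and Nbn, differed by 0.01 and 0.00. The call of Rad50 was lost without DKO replicates 1 or 3 (adjusted p = 0.0642 and 0.0657). That of Rif1 was lost without DKO replicates 1 or 3 or WT replicate 3 (0.102, 0.132 and 0.0807), and that of Bard1 without DKO replicates 2 or 3 or WT replicates 1 or 2 (0.0978, 0.0597, 0.0992 and 0.0939). With the mean of its probe sets Bard1 was at -0.28 (adjusted p = 0.363), and without the trend over span and signal Rad50 was at 0.14 (adjusted p = 0.371).

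Of 11 strand exchange genes 1 rose and 1 fell. Rad52, which anneals single strands, rose by 0.41 (limma adjusted p = 0.0333), and Sem1, listed as Shfm1, a small protein bound to BRCA2, fell by 0.32 (adjusted p = 0.0473). Of 5 genes of junction resolution, the route that competes with dissolution by BLM, 0 rose, also at an unadjusted p under 0.05, and 1 fell, Eme1, which pairs with the nuclease MUS81 (-0.53, adjusted p = 0.0457). Of 8 partners in dissolution and at forks 0 rose and 0 fell by limma, and 0 had an unadjusted p under 0.05. They include Rmi2, the third subunit beside RMI1 and TOP3A (-0.07), Fancm, which brings the BLM complex to stalled forks (-0.12), and Top3b (-0.00). Of 7 genes grouped here under other recombination-limiting helicases, a loose grouping, 0 rose, also at an unadjusted p under 0.05. In this group 1 fell, Ddx11, a helicase of sister chromatid cohesion (-0.48, adjusted p = 0.0303). Of 4 topoisomerase genes 0 fell, with 1 lower at an unadjusted p under 0.05, and 1 rose, Top2b (0.56, 9.90, 9.85 and 9.99 in DKO, 9.31, 9.35 and 9.41 in WT, adjusted p = 0.0023), the call among these 8 that held in 19 of 19 alternatives. The other 7 calls were lost in 6 to 11 of 19 alternatives each. Those of Sem1 and Eme1 were lost without any 1 array other than WT replicate 3 (adjusted p of 0.0793 to 0.158 and of 0.0541 to 0.163), that of Rad52 without any but WT replicate 2 (0.0674 to 0.112), and that of Ddx11 without any but WT replicate 1 (0.0589 to 0.104).

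**Figure D4:**
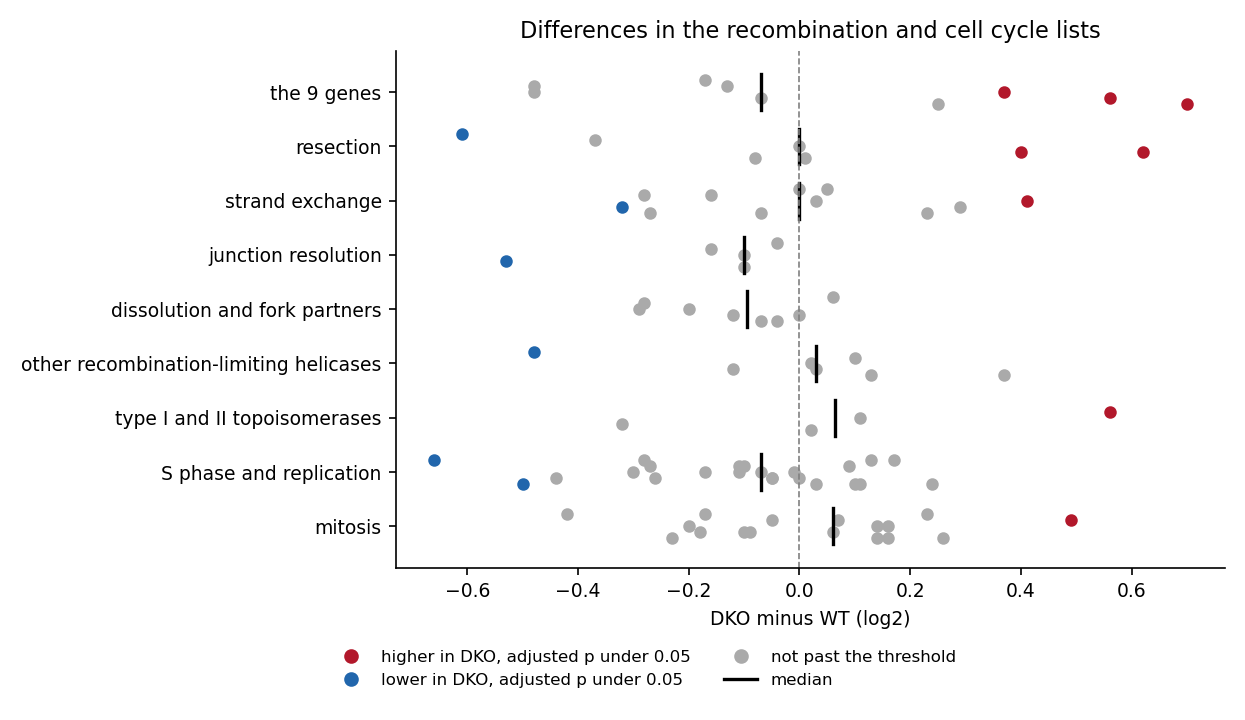
DKO minus WT on the log2 scale (horizontal axis) for the 9 genes and for each measured gene of the recombination and cell cycle lists, coloured by whether and how it passed an adjusted p of 0.05; bars mark medians. Each median lies 0.10 or less from 0, and called genes lie on both sides.

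Blm was also set against all other genes for likeness of pattern, by the root mean square difference of values centred on each gene's mean over the 6 arrays. The 5 nearest genes were Dtx3l (0.0825), a ubiquitin ligase of the DNA damage response, Gbp7 (0.0844), an interferon-inducible GTPase, Uvrag (0.104), a gene of autophagy, Ncoa7 (0.105) and Shcbp1 (0.105). Their own differences were 0.67, 0.57, 0.57, 0.61 and 0.55, beside 0.70 for Blm. DKO replicate 2 was the lowest DKO array in all 5. The measure selects for this and for differences close to that of Blm. None of the other 8 genes was among the nearest 5.

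**Figure D5:**
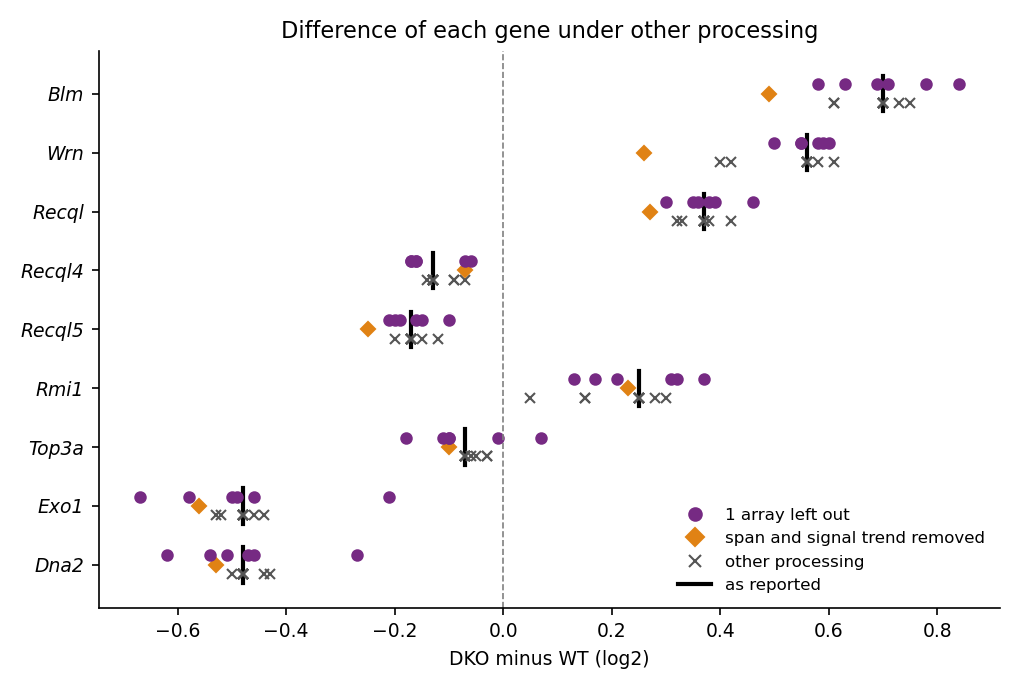
DKO minus WT on the log2 scale (horizontal axis) for each of the 9 genes as reported (black bar), with 1 array left out (circles), with the trend over gene span and signal removed (diamonds) and under other processing (crosses). Blm stays between 0.49 and 0.84, Wrn falls to 0.26 with the trend removed, and Exo1 and Dna2 come nearest to 0 without DKO replicate 2.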

How the data were processed

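The authors deposited log2 signals, 1 per probe set and array, for 6 Affymetrix Mouse Gene 1.0 ST arrays. Per the labels, sample titles name gene-level default RMA, whereas the series' design text names preliminary MAS 5.0 normalisation. Values between 1.25 and 13.7, with medians of 5.88 to 5.91, are those of log2 RMA. The submitters' processing notes name Affymetrix Expression Console 1.0. No source names an annotation or genome build.

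Of 35556 probe sets 21789 had 1 gene symbol, 1621 several and 12146 none, which left 19938 genes. DKO was compared with WT by limma 3.58.1 in R 4.3.3 (lmFit, eBayes, two-sided), with Benjamini-Hochberg adjustment over all 19938 genes and a threshold of 0.05. The script was tested on simulated data. The members and lists were chosen with earlier results of these data known. Named genes are the 9 members, every called gene of a list with 5 or fewer calls (otherwise the 4 with the smallest p), Top3b, Rmi2, Fancm, Brca1, Mki67 and Pcna, and the 5 genes nearest to Blm. Kit, Mre11a and Nbn were named after their values were seen. Xrcc2, Rbbp8, Eme2, Rnf8 and Helq of the recombination lists are not analysed here, and a further gene is not reported here. Pairwise ratios used an exact permutation test. The number of arrays limits the precision, and the limma p-values set a difference against the spread between these samples within the groups. They take that spread as common to both groups, although SDs were unequal for Exo1 (0.49 in DKO, 0.04 in WT) and Dna2 (0.37 and 0.05). In all 19 alternatives were run (normalisation, filters, probe sets, models, a replicate block, a span trend, each array left out, other thresholds).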

Additional observations from a re-analysis of the deposited data

How the results depend on the processing

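Of 171 comparisons of the 9 genes with an alternative, 157 kept their direction and their side of the threshold. The exceptions were Wrn in 1 and Recql in 9 that lost the call, Dna2 in 3 that gained it, and Top3a, which ranged from -0.18 to 0.07 with 1 array left out and changed sign without WT replicate 1. The count of members called higher went from 3 to 1 once the trend over gene span and signal was removed. Members called lower went from 0 to 1 without the dimmest 50% of genes and at a threshold of 0.1, and ranged from 0 to 1 with 1 array left out.

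Of the 42 recombination and topoisomerase genes, 1 was called higher with quantile normalisation, 2 with cyclic loess, 1 with the trend removed and 1 at a threshold of 0.01, and 1 to 4 with 1 array left out. Called lower were 0 with median centring, 1 with array weights and 0 at a threshold of 0.01, and 0 to 3 with 1 array left out. Over all genes 1058 rose and 588 fell at a threshold of 0.01, and with 1 array left out 1250 to 1868 rose and 843 to 1388 fell, the lowest counts of falls being 843, 876 and 854 without DKO replicates 1, 2 and 3. Pcna was at -0.01 with cyclic loess and Mki67 at -0.01 with the trend removed, and Top3b was at 0.04 with median centring and at -0.09 to 0.06 with 1 array left out.

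Same-numbered arrays of the 2 groups deviated from their group means with correlations across genes of -0.01, -0.10 and -0.04. These gave no sign that the numbers pair the samples, but so few arrays per group cannot settle it. The replicate block gave 1772 rises and 1272 falls over all genes and 2 rises among the 9, with Recql at an adjusted p of 0.0568. No scaling moved the median difference of all genes by over 0.1.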
